A study of Mus musculus with 23 samples.

Results

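Ribosome footprints from organoids labelled Rptor fl/fl were set against the mRNA of wild type (WT) organoids, to see which genes carried many or few footprints for their WT mRNA level. The comparison used 7 of the 23 libraries of the series, chosen by their labels. They were 3 footprint libraries, labelled organoid 1 to 3, and 4 RNA-seq libraries, which were 2 technical libraries from each of 2 WT organoid lines and were summed per line. All came from mouse small intestinal organoids on the C57BL/6 strain, which are epithelial cultures grown from crypts, the stem cell pockets of the gut wall. The footprint organoids were VillinCre.ERT2.Rptor.fl/fl.RPL22.HA and the WT organoids were VillinCre.ERT2.RPL22.HA. Every line thus carried a tamoxifen-inducible Cre under the Villin promoter, which is active in gut epithelium. Both also carried the allele for HA-tagged ribosomal protein RPL22, through which ribosomes were pulled down for the footprint libraries. The RNA-seq libraries were made by poly(A) selection from total RNA without a pulldown. The labels call both groups untreated, while the study's methods describe tamoxifen induction, so the state of the Rptor allele in the footprint organoids has to be read from the data.

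No mRNA libraries from organoids of the footprint genotype were used here. Rptor-labelled RNA-seq came from VillinCre.ERT2.Rptor.fl/fl organoids without the RPL22.HA allele, in 2 lines with 2 technical libraries each. The third set, stem cell enriched (SCe) organoids of genotype VillinCre.ERT2.RPL22.HA kept in valproic acid and a chemical inhibitor of GSK3, had both assays in 3 libraries each. Every ratio of footprints to WT mRNA therefore compares libraries that differ in assay, in pulldown, in RNA selection and in genotype, and these cannot be told apart within it.

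Ribosome profiling sequences the stretch of mRNA that a ribosome covers and protects from RNase. A gene's footprints depend on how much mRNA it has and on how many ribosomes sit on each copy, so dividing by mRNA gives a measure of ribosome load, often called translation efficiency. Raptor, the product of Rptor, is the subunit that defines mTORC1, the kinase complex that couples nutrient supply to protein synthesis. The mRNAs best known to depend on it begin with a terminal oligopyrimidine (TOP) tract and encode ribosomal proteins and translation factors. In the gut, mTORC1 is active in crypt cells, and loss of stem cell genes with gain of fetal-like genes is a known response of the epithelium to damage.

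The 3 footprint libraries held 5992941, 6379236 and 8257457 reads on coding sequences, and the WT technical libraries 24466527 to 29690442 reads. A further 3.82 to 4.25% of footprints lay on separate entries for 5′ untranslated regions (5′ UTRs), which were kept out of the gene values. Across the 11932 genes tested, Spearman's rho was 0.982 to 0.989 between footprint libraries, 0.994 between the WT lines and 0.850 to 0.858 between the assays in 6 pairs. These are descriptions across genes, which share library, depth and gene length. Nothing in the labels says that the 3 footprint organoids came from separate animals, so p-values measure the spread between these samples. Markers of stroma were scarce but higher in footprints. Their sum reached 0.501 to 0.913 RPKM (reads per kilobase, scaled to the library size) in footprints and 0.0735 to 0.0748 in WT mRNA. Dcn, Lum and Thy1 were at 0 in every library, while Col3a1 was at 0 in WT mRNA but not in footprints. Smooth muscle and pancreatic acinar markers, given further below, were also higher in footprints. Summed immune markers reached at most 0.974 RPKM in footprints and 0.978 in WT mRNA, with Adgre1 at 0 throughout.

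Rptor itself checks the label of the footprint libraries. Its footprints numbered 104, 118 and 131, which is 8.82, 9.56 and 8.14 RPKM, and its reads in the WT lines numbered 2725 and 2375, which is 8.25 and 7.71 RPKM. Relative to the median gene its ratio to WT mRNA was -0.44 ± 0.11 (log2, SE; edgeR adjusted p = 0.0092), short of the 2-fold needed for a call, and it was -0.45 in SCe organoids, where both assays came from cultures with an intact gene. In the Rptor-labelled RNA-seq lines Rptor was at 2.50 and 2.64 RPKM, and the same footprints gave a ratio of 1.25 to that mRNA. With the lengths used, the footprint libraries thus held Rptor within 2-fold of what WT mRNA and the median gene give. They are called Rptor-labelled below. That length, weighted by reads, was 1.95 kb for Rptor footprints, while the coding sequence of the transcript with most WT reads has 4008 bases. A longer footprint length would give a lower ratio, so the 2-fold statement holds only for the lengths used. The footprints were counted over the whole coding sequence, so these values do not show single exons, and whether the allele was recombined cannot be told. Counts over whole transcripts were nevertheless lower for Rptor in the Rptor-labelled RNA-seq lines than in the WT lines, as given above. Rpl22, the tagged ribosomal protein, had 443, 930 and 754 RPKM of footprints and 550 and 571 RPKM of WT mRNA, a ratio of -0.25 ± 0.25 (adjusted p = 0.41, edgeR) that turned positive, to 0.09, without footprint library 1.

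Several results below concern short elements of the mRNA, and those that carry them are shown here 5′ to 3′. Replication-dependent histone mRNAs end in a stem-loop in place of a poly(A) tail. A match was a stem of 6 base pairs whose 5′ arm starts with GG around a loop of 4 bases, within the last 100 bases of the transcript, and it was found in 21 of 62 histone genes tested (33.9%) and in 22 of the 11870 other genes (0.185%). The sequences are from the files' mouse annotation on mm10, the capitals mark stem and loop, and each gene was among those with the most footprints for its mRNA.
Hist2h2aa2, chr3:96239777-96239806, minus strand: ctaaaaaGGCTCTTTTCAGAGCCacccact
Hist1h2bp, chr13:21787916-21787945, plus strand: acacaaaGGCTCTTTTCAGAGCCacccaca
Hist1h3b, chr13:23752813-23752842, plus strand: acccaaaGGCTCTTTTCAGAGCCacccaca
Hist1h4b, chr13:23757359-23757388, plus strand: tacaaaaGGTCCTTTTCAGGACCactcact

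The iron-responsive element is a hairpin in the 5′ UTR to which iron regulatory proteins bind, holding back translation when iron is scarce. A match of 17 bases was a C followed by a stem of 5 base pairs, with G-T pairs allowed, around the loop CAGTGN. It was found on the transcript strand in 4 of the 7 iron-responsive genes tested and in 10 of 11592 others with a 5′ UTR (0.0863%). The capitals mark the match on mm10, in 3 genes with few footprints for their mRNA.
Ftl1, chr7:45459779-45459807, minus strand: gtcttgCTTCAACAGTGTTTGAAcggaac
Fth1, chr19:9982732-9982760, plus strand: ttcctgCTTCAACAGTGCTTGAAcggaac
Slc40a1, chr1:45925465-45925493, minus strand: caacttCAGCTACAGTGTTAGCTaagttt

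A start with C and at least 4 more pyrimidines, read at the RefSeq start of the gene on GRCm38.p6, was present in 14 of 58 ribosomal protein genes with a RefSeq entry (24.1%), in 3 of 12 other TOP mRNAs (25%) and in 253 of 9331 other genes (2.71%). The start was taken as annotated, so a gene without a match may still begin with a TOP tract. The capitals mark the run from the start base onward, after 10 bases of promoter, in ribosomal protein genes with ratios from 3.19 to -0.55 and in Rack1, a ribosome-bound scaffold protein.
Rpl35, chr2:39005112-39005141, minus strand: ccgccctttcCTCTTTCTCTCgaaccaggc
Rpl38, chr11:114668570-114668599, plus strand: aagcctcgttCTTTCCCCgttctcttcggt
Rplp2, chr7:141447641-141447670, plus strand: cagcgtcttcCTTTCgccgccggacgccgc
Rps6, chr4:86857348-86857377, minus strand: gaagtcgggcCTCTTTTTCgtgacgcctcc
Rps27, chr3:90213629-90213658, minus strand: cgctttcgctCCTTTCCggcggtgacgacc
Rack1, chr11:48800350-48800379, plus strand: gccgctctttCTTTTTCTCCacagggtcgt

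Footprints per WT mRNA varied widely between genes. Of 11932 genes tested, 1713 (14.4%) had a ratio at least 2-fold above the median gene and 2534 (21.2%) at least 2-fold below it with an edgeR adjusted p under 0.05. A gene is called higher or lower by this rule throughout, and a ratio is the log2 of footprints over mRNA, each per kilobase, minus that of the median gene. The quartiles of the ratio over all genes were -0.86 and 0.67. Libraries of the same assay lay so close together that 8503 genes passed the adjusted p at any fold, and the values of the groups, set off by the median gene, did not overlap for 9619 genes. The call therefore rests mostly on the fold, and each count for a gene group is to be read against 14.4% and 21.2%. Before centring, the median gene had 1.50-fold more footprint RPKM than mRNA RPKM, which depends on how each assay is scaled and says nothing of translation. Taking that median gene as the zero matters for the split: without it 4103 genes were higher and 1464 lower.

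**Figure D1:**
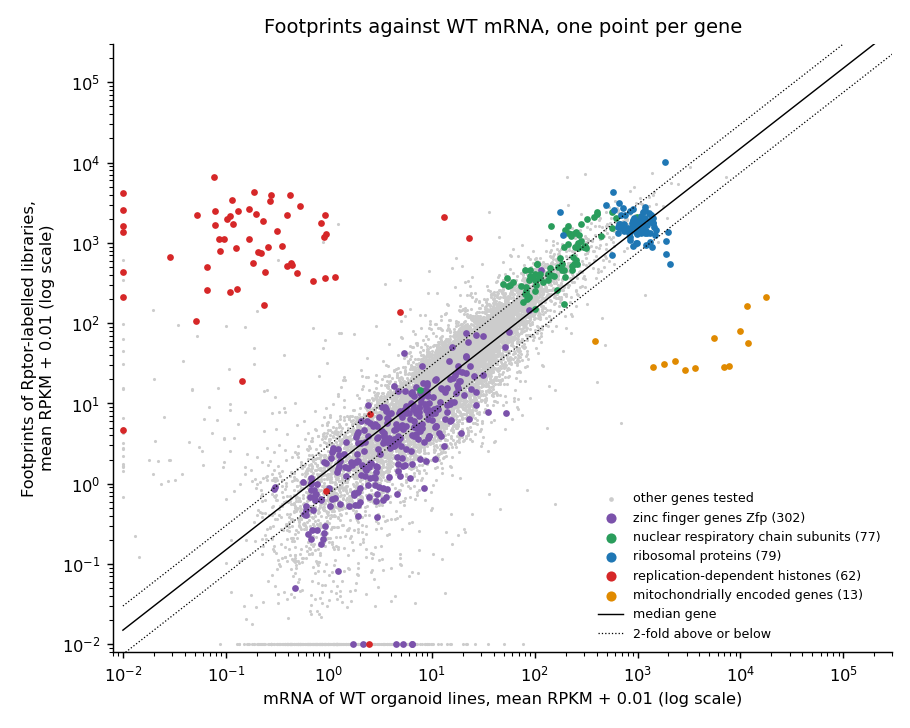
Mean RPKM of footprints in the 3 Rptor-labelled libraries against mean RPKM of mRNA in the 2 WT lines, both plus 0.01 on log scales, with a point for each of the 11932 genes; the solid line is the median gene and the dotted lines lie 2-fold from it. Histones stand far above the line, mitochondrially encoded genes far below it, and respiratory chain subunits mostly above it.

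Replication-dependent histones, which package new DNA during S phase, stood furthest above the median gene. Of 62 tested, 59 were higher and 1 was lower, with a median ratio of 11.71, or 11.28 with 17 genes set at a bound of 3 reads per library because every library of a group lay at or under that count. Hist2h2aa2 had 12286, 11233 and 14097 footprints and no read in either WT line, which makes it at least 26580-fold higher than WT mRNA relative to the median gene. Its coding sequence is shared with another gene, so reads could be split between copies. Hist1h3i had 7342, 7574 and 9294 footprints, again with no WT read, and was at least 15160-fold higher. The linker histone gene Hist1h1c was among the few with many mRNA reads, 1096 and 1049 in the WT lines against 9473, 8850 and 11523 footprints, and its ratio was 6.74. The exception was Hist3h2a, with no footprint in any library and 263 and 282 WT reads, at least 3.64-fold lower. Hist2h3c1 and Hist2h2be were not called. The same list had a median of 11.94 in SCe organoids. No member passed the test of the difference described further below, which only 11 of 13051 genes passed. mRNAs without a poly(A) tail, whose ends are shown above, enter poly(A)-selected libraries poorly, and how far that rather than ribosome load sets these values cannot be told apart.

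The 13 genes encoded in mitochondrial DNA stood furthest below. Mitochondria translate them on their own ribosomes, which contain no RPL22. All 13 were lower, with ratios from -8.66 to -3.31 and a median of -7.02. The complex I subunit mt-Nd1 had 215, 166 and 203 footprints and 387005 and 376620 reads in the WT lines, a ratio of -8.52. The lowest was mt-Atp8, a subunit of ATP synthase, with 60, 27 and 62 footprints and a ratio of -8.66. The mildest was mt-Nd6, with 78.5, 47.0 and 52.4 RPKM of footprints against 378 and 400 RPKM of mRNA, a ratio of -3.31. In SCe organoids the median of these genes was -8.11. The median of their differences from SCe was 1.27. None of the 13 passed the test of that difference described further below, which only 11 of 13051 genes passed.

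Away from these groups, 8 genes with the highest and 8 with the lowest ratios were named among called genes that had at least 100 reads in every library and no overlap between the footprint libraries and the WT lines. Dynlt1c, a light chain of the dynein motor on chromosome 17, headed the list. It had 334, 294 and 295 RPKM of footprints and 3.71 and 3.32 RPKM of WT mRNA, a ratio of 5.87 ± 0.12 (SE). H2afx, the histone variant phosphorylated at DNA breaks, on chromosome 9, followed with 2169, 2624 and 2467 RPKM of footprints against 36.5 and 35.7 of mRNA, a ratio of 5.48 ± 0.12. Its gene yields mRNAs both with a stem-loop and with a poly(A) tail. Hypk, a ribosome-bound partner of N-terminal acetylation, had 441, 459 and 432 RPKM of footprints against 9.41 and 9.46 of mRNA, a ratio of 4.97. Alyref, an adaptor for mRNA export, had 460, 542 and 551 RPKM against 19.2 and 20.2, a ratio of 4.13.

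The other genes with the highest ratios share an identical coding sequence with another gene, as Dynlt1c does, so that reads could be assigned to either copy. They were Rps12-ps3, a copy of Rps12, at 4.65, the Paneth cell defensin Defa3 at 4.42, Sssca1 at 4.4 and Sap18, a part of histone deacetylase complexes, at 4.39. Rps12-ps3 varied most, with 2587, 1882 and 1122 footprints against 482 and 454 WT reads, and Rps12 varied the other way, with 12, 1915 and 3325 footprints. Gene length in the mRNA files enters each ratio: without lengths, Dynlt1c was at 4.14 and Hypk at 4.17, while H2afx stayed at 4.96.

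Gvin1, a very large GTPase induced by interferon, had the lowest ratio of the named genes. It had 3.25, 3.02 and 8.60 RPKM of footprints against 97.2 and 169 RPKM of WT mRNA, a ratio of -5.30 ± 0.45, and both assays varied more than for its neighbours. Lars2, the mitochondrial leucyl-tRNA synthetase on chromosome 9, had 13.1, 10.7 and 10.9 RPKM of footprints against 91.6 and 89.3 of mRNA, a ratio of -3.56 ± 0.09. The semaphorins Sema4g and Sema4a, membrane-bound signalling proteins, were at -3.48 and -2.95. Dgkz, a kinase of diacylglycerol, was at -3.17, and Mast2, a microtubule-associated kinase, at -3.07. Pcnx3, a large membrane protein, was at -3.00. Of all their footprints, Sema4g, Sema4a, Pcnx3 and Dgkz had 35.4, 26.6, 24.3 and 15.3% on the 5′ UTR entry, Lars2, Ftl1 and Mast2 had 8.36, 4.36 and 4.24%, and Gvin1 had none.

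The most abundant of these 8 genes was Ftl1, the light chain of ferritin, the iron store of the cell. Its footprints were at 217, 264 and 194 RPKM and its WT mRNA at 1198 and 1148 RPKM, a ratio of -2.97 ± 0.12 (edgeR adjusted p = 1.5e-06). The choice of transcript moved several of them: counted on the transcript with most mRNA reads, Hypk was at 7.69, Dgkz at -14.16 and Lars2 at -6.24, while Sema4g was at -1.88 and Sema4a at -1.71.

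**Figure D2:**
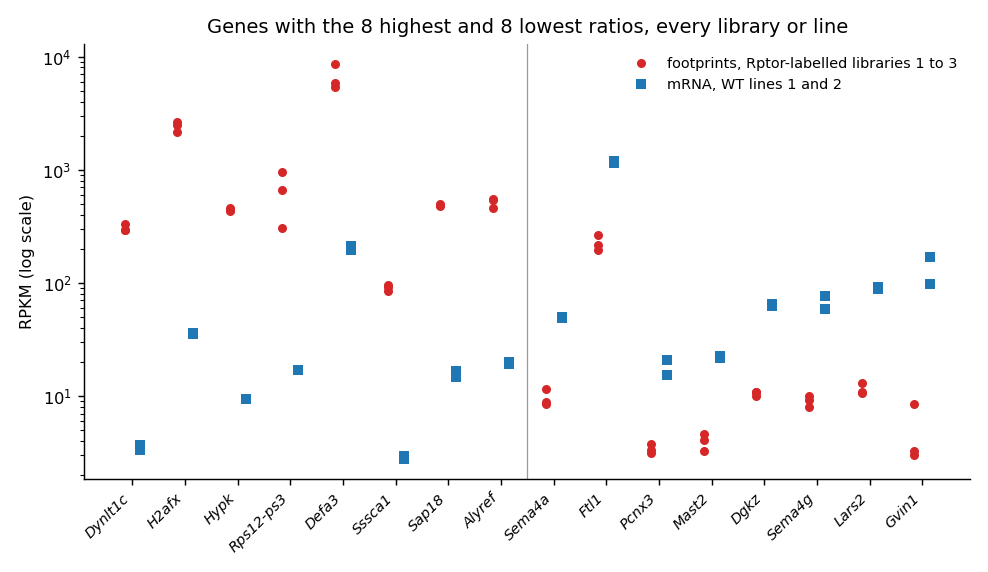
RPKM on a log scale in each of the 3 Rptor-labelled footprint libraries (circles) and the 2 WT lines (squares) for the 8 genes with the highest and the 8 with the lowest ratios. Footprints lie above mRNA in all 8 genes on the left, such as Dynlt1c, and below it in all 8 on the right, such as Gvin1.

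Of 32 genes of the mTOR pathway tested, 4 were higher and 5 were lower, with a median of -0.15, so the list stood close to all genes. That median turned positive without the count filter (0.13), with effective lengths (0.36) and without centring (0.44). The higher genes included Lamtor2 and Lamtor4, subunits of the Ragulator complex that holds mTORC1 at the lysosome. Lamtor2 had 286, 328 and 324 RPKM of footprints and 54.3 and 57.8 of WT mRNA, a ratio of 1.90 ± 0.09, and Lamtor4 had 202, 176 and 177 against 28.1 and 30.0, a ratio of 2.08 ± 0.10. Eif4ebp1, the repressor of cap-dependent translation that mTORC1 phosphorylates, was at 1.73 ± 0.14. Deptor, an inhibitory mTOR subunit, had 79.4, 80.2 and 80.1 RPKM against 23.8 and 24.8, a ratio of 1.13 ± 0.06 that became -0.59 without gene lengths. Mtor itself was at 0.73 and was not called.

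The lowest of the 5 lower genes was Rragd, a GTPase that recruits mTORC1 to the lysosome, with 32, 16 and 30 footprints and 2580 and 2801 WT reads, a ratio of -2.44 ± 0.22. Ulk1, the kinase that starts autophagy, was at -1.84 ± 0.13, and Depdc5, a subunit of the amino acid sensing GATOR1 complex, at -1.81 ± 0.13. Tsc2 and Tsc1, which together form the brake on the mTORC1 activator RHEB, were at -1.14 ± 0.11 and -1.28 ± 0.13. Tsc1 depended on the transcripts counted and was at 0.86 on the transcript with most mRNA reads. The shares of footprints on the 5′ UTR entry were 19.8% for Rragd, 22.1% for Ulk1, 17.2% for Depdc5, 8.33% for Tsc1 and 1.59% for Tsc2, against a median of 3.34% over all genes. Set against the mRNA of the Rptor-labelled lines, the ratios were -2.52 for Rragd, -1.53 for Ulk1, -1.49 for Depdc5 and 2.62 for Eif4ebp1. The 2 comparisons share their footprint libraries.

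Ribosomal proteins, the best known TOP mRNAs, lay at the median gene as a group. Of 79 tested, 9 were higher and 4 were lower, with a median of 0.15 that became -0.33 with effective lengths for mRNA alone. In SCe organoids the median of this list was 0.53, and the median of the differences from SCe was -0.35. No member passed the test of that difference described further below, which only 11 of 13051 genes passed. Rpl35 had 2206, 2610 and 2462 RPKM of footprints and 178 and 176 RPKM of WT mRNA, a ratio of 3.19, and Rpl38 had 3618, 4659 and 4602 against 577 and 590, a ratio of 2.29. At the other end Rplp0, which forms the stalk of the large subunit, had 658, 790 and 760 RPKM against 1964 and 1789, a ratio of -1.94, and Rps2 was at -1.40. Rps12 was lower still at -2.51 but was not called (edgeR adjusted p = 0.070), with 12 footprints in library 1. The 14 genes with a pyrimidine start ran from Rpl35 at 3.19 to Rps27 at -0.55, with Rplp2 at 1.67 and Rps6 at -0.24 between them. The lower genes Rpl12, Rplp0 and Rps2 were not among them. The match was read only at annotated RefSeq starts, so a gene without it may still begin with a TOP tract. Of 18 other TOP mRNAs, 1 was higher, the translation-associated factor Btf3 at 1.85, and 1 was lower, the growth-related Tpt1 at -1.23. Their median of -0.38 was 0.27 without gene lengths and 0.21 without centring. Rack1, with a long pyrimidine run, was at -0.67 and was not called.

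Of 54 initiation factors, 12 were higher and none was lower, with a median of 0.42 and 18 members below the median gene. Eif3j1, which helps to load mRNA on the small subunit, had 81.9, 144 and 142 RPKM of footprints and 5.50 and 5.61 of mRNA, a ratio of 3.89. Its near-identical copy Eif3j2, chosen after its values were seen, was the lowest member at -1.27 ± 1.19 (SE) and was not called, with 325, 0 and 0 footprints and 4116 and 3897 WT reads, so that reads could be split between the copies differently in the libraries. Eif1ax, which scans for the start codon, had 398, 373 and 358 against 23.8 and 25.3, a ratio of 3.35. Of 20 cytosolic aminoacyl-tRNA synthetases 7 were higher and none was lower, with a median of 0.80. Nars and Hars, for asparagine and histidine, were at 1.58 and 1.56.

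Genes with known upstream open reading frames (uORFs), short reading frames ahead of the coding sequence that catch ribosomes, had few footprints on the coding sequence. Of 17 such genes tested, 7 were lower and 3 higher, with a median of -0.94. Ppp1r15a, the phosphatase subunit that ends the integrated stress response, had 8, 14 and 10 footprints and 1085 and 614 WT reads, a ratio of -3.79, with 45.8% of its footprints on the 5′ UTR entry. Ddit3, the stress transcription factor CHOP, had 11, 14 and 6 footprints and 1046 and 554 reads, a ratio of -3.23 with 34.1% on the 5′ entry. A second, low entry of that symbol was higher at 3.24. Cebpb was higher at 2.05 with 0.264% of its footprints on the 5′ entry, and Eprs, a synthetase whose uORFs allow its translation under stress, was at 1.30. Some members outside the naming rule were chosen after their values were seen. Slc35a4, whose uORF encodes a protein, had 81.5% of its footprints on the 5′ entry and a ratio of -1.82, and Azin1, which blocks the polyamine brake antizyme, had 51.1% and a ratio of -1.33. Atf4, the main effector of the stress response, had 34.2% and a ratio of -0.94, which was not called. Targets of ATF4 lay the other way: of 18 tested 7 were higher and 1 was lower, with a median of 0.89. Psph, which makes serine, had 64.1, 61.5 and 59.8 RPKM of footprints and 14.6 and 13.6 of mRNA, a ratio of 1.55, and Cebpg was at 1.41. Vldlr was lower at -1.03. Set against the mRNA of the Rptor-labelled lines, the median of these targets was 1.91.

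The same features ran with the ratio over all genes. Genes with no ATG in the annotated 5′ UTR had a median ratio of 0.32, with 19.1% of 5754 genes higher and 10.8% lower. The median was -0.10 with 1 ATG, -0.47 with 2 to 3 and -1.0 with 4 or more, where 6.69% of 1255 genes were higher and 48.5% lower. Genes with at most 1% of footprints on the 5′ entry had a median of 0.26, and those with over 50% a median of -2.32, with 81.2% of 256 genes lower. The share has the coding footprints in its denominator, so few coding footprints raise the share and lower the ratio together, and these classes are a description. Median WT reads were 1561 and 575 in these classes, so depth moved with them. Among the abundant genes with a high share was Ucp2, an uncoupling protein of the inner mitochondrial membrane, with 75.8% on the 5′ entry and a ratio of -2.56, chosen after its values were seen.

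Short coding sequences had higher ratios than long ones. The median was 0.78 for coding sequences of up to 300 bases, and in the classes that followed it was 0.65 up to 600 bases, 0.19 up to 1200, -0.15 up to 2400, -0.42 up to 4800 and -0.67 above 4800. Most footprint sequences have 46 bases added to the coding sequence, and lengths enter the ratio directly, so the scale of this trend rests on how length is counted. Spearman's rho with the ratio across 11599 genes was -0.34 for ATG number, -0.31 for coding length, -0.19 for 5′ UTR length and -0.12 for 3′ UTR length. It was 0.05 for the share of G and C in the 5′ UTR across 11301 genes and -0.30 for the share on the 5′ entry across 11304. Genes are not independent samples, so no p is given, and the features overlap with each other.

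**Figure D3:**
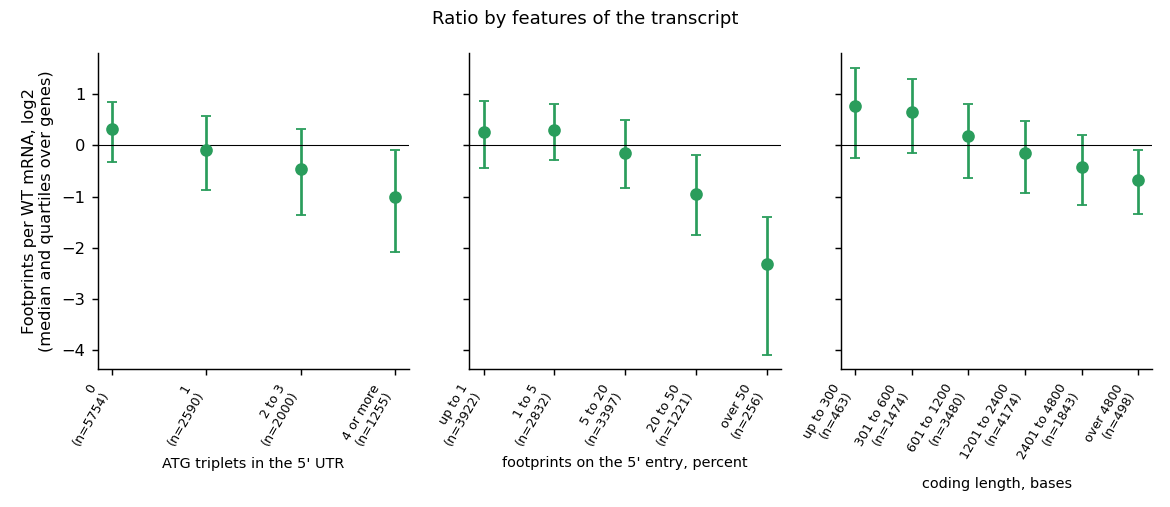
Median ratio of footprints to WT mRNA (log2, points) with quartiles over genes (bars) by the number of ATG triplets in the 5′ UTR, the percent of footprints on the 5′ entry and the coding length in bases. The median falls from 0.32 to -1.0 with ATG number, from 0.26 to -2.32 with the 5′ share and from 0.78 to -0.67 with coding length.

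Of 7 iron-responsive mRNAs tested, 3 were lower and none was higher. They were the ferritin chains Ftl1 and Fth1 and the iron exporter Slc40a1, which all matched the element shown above. Fth1 had 565, 866 and 670 RPKM of footprints and 2222 and 1743 RPKM of WT mRNA, a ratio of -2.09 ± 0.18. Slc40a1 had 25.4, 26.9 and 26.5 RPKM against 54.9 and 35.0, a ratio of -1.36 ± 0.18. In SCe organoids Ftl1, Fth1 and Slc40a1 were at -1.32, -0.36 and -0.10, but the differences from SCe of -1.55, -1.71 and -1.50 did not pass the test (edgeR adjusted p = 0.10, 0.21 and 0.28). Selenoproteins, which read a stop codon as selenocysteine, stood at the median gene: 1 of 20 was higher, Selenok at 1.84, and 1 was lower, Sephs2 at -1.03. Their median of 0.06 was -0.06 with 5′ footprints added and -0.02 with effective lengths for mRNA alone.

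Nuclear genes for mitochondria were high, in contrast to those of the mitochondrial genome. Of 77 nuclear subunits of the respiratory chain 44 were higher and none was lower, with a median of 1.19. Atp5j2 had 1542, 1705 and 1688 RPKM of footprints and 133 and 153 RPKM of WT mRNA, a ratio of 2.94, and Atp5e had 1796, 1665 and 1471 against 206 and 214, a ratio of 2.39. Both are small subunits of ATP synthase. The lowest member, Cox7a2l, was at -0.74 and was not called. Of 78 mitochondrial ribosomal proteins 33 were higher and none was lower, with a median of 0.88. Mrps25 was at 3.85 and Mrpl57 at 3.27, and the lowest, Mrpl37, was at -0.90 and was not called. Median footprint lengths of 461 and 616 bases make these genes short, the class that ran high over all genes. Core glycolysis genes also stood above the median gene: 5 of 19 were higher and none was lower, with a median of 0.73. Hk2, which traps glucose, had 52.1, 44.9 and 42.8 RPKM against 14.4 and 9.52, a ratio of 1.38, and Aldoc, an aldolase, was at 1.31. Eno1 was at -0.49 and was not called.

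Proteasome subunits and chaperones also stood mostly above the median gene. Of 37 proteasome subunits 9 were higher, led by Psma2 at 1.94 and Psmb1 at 1.65, with a median of 0.73. The only lower gene was Psmb11, a thymus-specific subunit with no footprint and 144 and 121 WT reads. Its call rests on a fitted ratio of -8.82. The bound of 3 reads per library makes it at least 1.92-fold lower, short of 2-fold. Of 27 chaperones 13 were higher and none was lower, with a median of 0.94. Hspe1, the lid of the mitochondrial chaperonin, had 1658, 1766 and 1664 RPKM against 209 and 220, a ratio of 2.40, and Cct3, of the cytosolic chaperonin, was at 1.61. Of 20 cholesterol synthesis genes 2 were higher, among them Fdft1, which makes squalene, at 1.36, with a median of 0.42. Of 27 proliferation genes 9 were higher, such as Rrm2 at 1.31 and Ccnb1 at 1.29, and 1 was lower, the transcription factor Foxm1 at -1.19, with a median of 0.86.

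Zinc finger genes of the Zfp series, mostly DNA-binding proteins, had few footprints for their mRNA. Of 302 tested 118 were lower and 9 higher, with a median of -0.73. Zfp488 had no footprint in any library against 1427 and 1412 WT reads, at least 22.8-fold lower, and Zfp991 had none against 688 and 1051, at least 20.4-fold lower. Zfp593 was highest at 2.39, followed by Zfp771 at 1.39. Immediate early genes, which are switched on within minutes of a stimulus, lay near the median gene: of 17 tested 3 were higher and 1 was lower. Jun had 47.5, 39.4 and 44.0 RPKM against 9.52 and 12.8, a ratio of 1.38, and Ier5 was at 1.19, while Klf4 was at -1.50. The median of 0.16 was -0.11 without gene lengths and -0.32 against the mRNA of the Rptor-labelled lines.

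**Figure D4:**
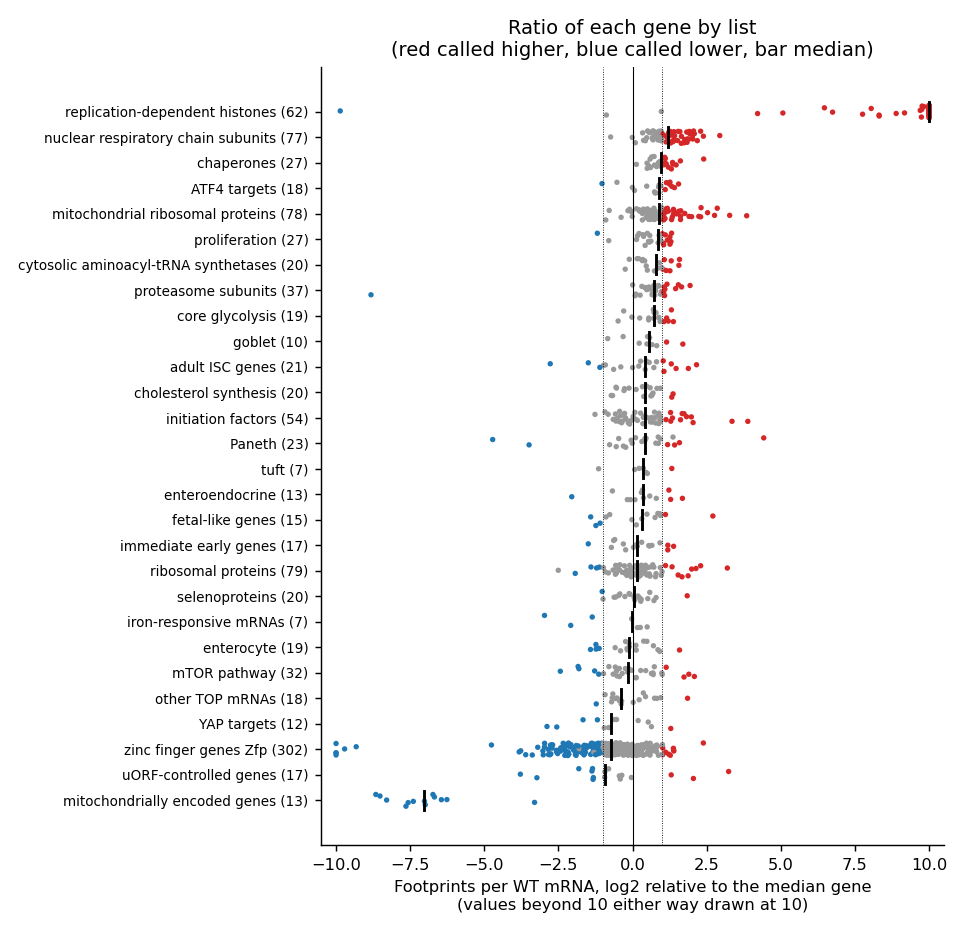
Ratio of footprints to WT mRNA (log2, relative to the median gene) for each tested gene of the lists described, with the number tested in brackets, the median as a bar and dotted lines 2-fold from the median gene. Histones lie at the right edge with a median of 11.71 (values beyond 10 are drawn at 10), mitochondrially encoded genes at the left with a median of -7.02, and the other medians lie between -0.94 and 1.19.

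Genes of adult intestinal stem cells were found on both sides of the median gene. Of 21 tested, 6 were higher and 3 lower, with a median of 0.43. Lgr5, the receptor that marks these cells, had 75.1, 75.3 and 77.4 RPKM of footprints and 45.6 and 42.0 RPKM of WT mRNA, a ratio of 0.21 ± 0.07 that was -0.08 with effective lengths. Sox9, a crypt transcription factor, had 143, 141 and 138 RPKM against 21.1 and 20.8, a ratio of 2.16, and Ascl2, which sets stem cell identity, was at 1.88. Rnf43 and Znrf3, ligases that remove WNT receptors, were lower at -2.78 and -1.49. For Rnf43 the footprints were at 6.20, 5.40 and 5.71 RPKM and the mRNA at 26.4 and 26.3.

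Fetal-like genes gave 2 higher and 3 lower of 15 tested, with a median of 0.31 that was -0.39 on the transcript with most mRNA reads. Ly6e, a surface protein, was at 2.71 and S100a6, a calcium-binding protein, at 1.11, while the annexin Anxa8 was at -1.24. Ly6a (Sca1), a fetal-like surface marker, had 103, 57 and 88 footprints and 827 and 584 WT reads, a ratio of 0.31 ± 0.27 that was -0.39 on the transcript with most mRNA reads. Spp1 and Gja1 had too few reads on both sides to be tested, with at most 5 footprints in any library and at most 2 reads in a WT line. Of 12 YAP targets 1 was higher, Gadd45b at 1.29, and 4 were lower, with a median of -0.71. Arhgef17 was at -2.89, and Wwc1, an upstream regulator of the Hippo pathway, at -2.56.

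Among mature cell types, summed Paneth markers reached 28270 to 35490 RPKM in footprints and 9287 to 11120 in WT mRNA. Of 23 Paneth genes 4 were higher and 2 lower. Lyz1, the lysozyme of these cells, had 3971, 3319 and 3475 RPKM of footprints and 966 and 1145 of mRNA, a ratio of 1.18. The defensins, a family of near-identical copies, spread from Defa3 at 4.42 and Defa27 at 1.58 to Defa28 at -3.49 and Defa25 at -4.72, and reads can move between copies. The median of 0.42 was -0.25 with effective lengths for mRNA alone. Of 10 goblet genes 2 were higher and none was lower, with a median of 0.54, Tff3 at 1.69 and Spink4 at 1.15. Of 19 enterocyte genes 1 was higher, the fatty acid carrier Fabp2 at 1.58, and 4 were lower, such as the brush border protease Mep1b at -1.42 and lactase, Lct, at -1.24. Their median of -0.12 turned positive under several settings, up to 0.47 without centring, and was 0.01 without footprint library 1. Of 13 enteroendocrine genes 3 were higher, such as Neurog3 at 1.68 and Tac1 at 1.28, and 1 was lower, Gcg at -2.05 with 13, 3 and 18 footprints. Of 7 tuft cell genes 1 was higher and none was lower.

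Markers of other tissues were scarce but not equal between the assays. Summed smooth muscle markers reached 2.98 to 5.2 RPKM in footprints and 0.0792 to 0.166 in WT mRNA, with Cnn1 at 0 in both. Acta2 had 10, 17 and 21 footprints and 2 reads in each WT line, and Actg2 had 6, 14 and 15 footprints against 0 and 1, and both were called higher. Summed pancreatic acinar markers reached 207 to 326 RPKM in footprints and 84.9 to 88.7 in WT mRNA, with Pnlip, Try4 and Try5 at 0 in both. Of the 2 genes tested there, Clps was higher at 1.19 and Ctrb1 lower at -1.08. Their part in the results above was not tested.

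Whether the footprints follow WT mRNA or that of the Rptor-labelled lines can be seen where the mRNAs differ. Set against the mRNA of the Rptor-labelled lines, 2283 of 12138 genes (18.8%) were higher and 2952 (24.3%) lower, and Spearman's rho across genes was 0.816 to 0.826, below the 0.850 to 0.858 with WT mRNA. There were 51 genes whose mRNA was at least 4-fold higher in both WT lines than in the Rptor-labelled lines, with at least 100 reads in each line of the higher group. For the 46 tested in both comparisons the median ratio was 0.01 to WT mRNA and 3.07 to Rptor-labelled mRNA, and 42 of them lay nearer the median gene with WT mRNA. Many of them are Paneth cell genes, namely Lyz1 and defensins, near-identical copies between which reads can move, so they are not separate observations. Conversely, 108 genes had mRNA at least 4-fold higher in the Rptor-labelled lines. Of these, 89 had at most 10 footprints in each library, against 6 of the 51 genes with more WT mRNA. Footprint libraries held fewer reads than the RNA-seq lines, and the share over all genes was not counted, so these counts are a description. For the 32 tested in both, the median ratio was -0.61 to WT mRNA and -3.58 to Rptor-labelled mRNA, and 28 lay nearer with WT mRNA. The comparisons share their footprint libraries and the genes were chosen on mRNA, so these values describe the libraries and carry no test.

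**Figure D5:**
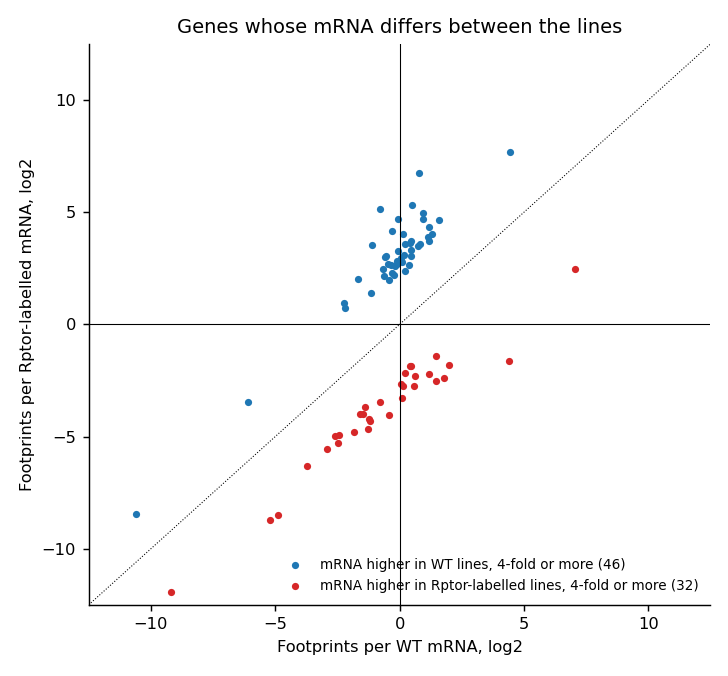
Ratio of the same footprints to Rptor-labelled mRNA against their ratio to WT mRNA (both log2) for genes whose mRNA differs at least 4-fold between the lines and that were tested in both comparisons. Genes with more WT mRNA (46) gather near 0 on the horizontal axis and near 3 on the vertical axis, and most genes with more Rptor-labelled mRNA (32) lie nearer to 0 on the horizontal than on the vertical axis.

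Some of these genes were picked out after their values were seen. Slc7a11, the cystine transporter and ATF4 target, had 34.7, 29.3 and 34.4 RPKM of footprints, with 9.33 and 8.19 RPKM of mRNA in WT lines and 1.55 and 1.24 in Rptor-labelled lines. Trib3, another ATF4 target, had 23.2, 16.4 and 17.8 RPKM of footprints, with 15.4 and 8.92 in WT lines and 1.65 and 1.79 in Rptor-labelled lines. Lgr5, with a ratio of 0.21 to WT mRNA, was at 2.04 against the Rptor-labelled lines, and the Paneth list moved from 0.42 to 3.12. In the other direction Cav1, a coat protein of caveolae, had no footprint in any library and 11.1 and 5.30 RPKM in Rptor-labelled lines. The collagen Col4a1 had at most 0.10 RPKM of footprints against 13.8 and 7.44 RPKM in Rptor-labelled lines and 1.28 and 0.41 in WT lines. Its footprints were thus few for WT mRNA too, with a ratio of -4.9. Ratios of the fetal-like and YAP lists accordingly moved to -1.89 and -2.62. Gja1 had no footprint although 627 and 310 reads were found in the Rptor-labelled lines. The 4 genes of the first group that lay nearer to Rptor-labelled mRNA were Adcy1, Ggt1, H2-Q10 and Tnfrsf8, and the 4 of the second were Cdkn2a, Epdr1, Eva1c and Samd12. Without footprints from WT organoids or mRNA from the footprint organoids, a change in ribosome load with loss of Rptor cannot be told apart from a difference in cell state, in recombination or between the assays.

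The ratio was last compared with that in SCe organoids, where footprints and mRNA came from cultures of the same genotype. This difference was tested as the interaction of assay and group in 13051 genes. It passed the edgeR adjusted p for 8 genes (0.0613%) with a higher ratio here and 3 genes (0.023%) with a lower one, while 1685 genes had an unadjusted p under 0.05. The SCe footprint libraries held 1981129, 1106178 and 4242425 reads, fewer than those here. DESeq2 called 366 higher and 239 lower. Without the 2 shallower SCe footprint libraries edgeR called 368 and 554, a fit that leaves 1 SCe footprint library and assumes that it varies like the other groups. Gene groups far from the median gene were so in both comparisons, as histones (11.71 here, 11.94 in SCe), mitochondrially encoded genes (-7.02 and -8.11), respiratory chain subunits (1.19 and 1.55) and uORF-controlled genes (-0.94 and -1.27). No member of any list passed the test of the difference except Zfp990 and Ctrb1.

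Of the genes with at least 20 reads in every library, 4 had a higher ratio here than in SCe organoids. Eno1b, an intronless copy of the glycolytic enzyme gene Eno1, differed by 9.01 ± 0.43 (edgeR adjusted p = 8e-06). Its footprints were many in both sets, 13310, 14163 and 19988 here and 4292, 4143 and 12409 in SCe, but its mRNA reads were 155 and 75 in WT lines and 36732, 95396 and 76151 in SCe. Reads can be split between the copies, and Eno1 had 91732 and 63715 reads in the WT lines. Lars2, whose ratio here was -3.56, was at -5.62 in SCe, a difference of 1.97 ± 0.27 (edgeR adjusted p = 0.035). Myo5a, a cargo-carrying myosin, differed by 1.69 ± 0.24 and Rsrc2 by 1.43 ± 0.20 (edgeR adjusted p = 0.039 for both). Myo5a turned to -2.27 with effective lengths. Of these 4 genes Eno1b alone passed in all 11 fits that left out a library or line, and Lars2, Myo5a and Rsrc2 passed in 5, 3 and 4 of them.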

How the data were processed

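Ribo-seq and RNA-seq of mouse organoids were analysed from quantification tables. The authors used cutadapt 1.18 to trim adapters from footprint reads, discarded ribosomal RNA fragments and ran Salmon 1.1.0 on every library, against protein-coding sequences of GENCODE vM21 (mm10). The deposited values used here are estimated counts, not normalized, with a length for each sequence. RNA-seq was quantified on 66244 transcripts of 22350 genes, and footprints on 59120 coding sequences of 22230 genes, of which 48553 had 46 bases added, beside 44641 entries for 5′ UTRs. An identical coding sequence was shared by 418 genes.

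These counts were added up over the sequences of a gene and rounded to whole numbers, and technical libraries were summed per line. In R 4.3.3 with edgeR 4.0.16, genes were filtered by filterByExpr, libraries scaled by TMM within each assay, and read-weighted gene length entered as an offset. Testing was by quasi-likelihood, adjusted after Benjamini and Hochberg. Ratios were centred on the median gene. A call needed an adjusted p under 0.05 and a fold of 2. The difference from SCe was the interaction of assay and group without a fold minimum or lengths. RPKM was computed from the scaled library sizes and lengths. Bounds used 3 reads per library in a group with no more than that. The scripts were tested on simulated data. No 2 libraries agreed within sampling noise, with a chi-square per gene of 4.07 to 8.66 between footprint libraries and of 1.88 and 2.56 between technical libraries.

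Genes named are Rptor, Rpl22, called genes of the mTOR list, the 8 highest and 8 lowest called ratios with at least 100 reads in every library and no overlap (leaving out histones, mitochondrially encoded genes and unnamed symbols), up to 2 highest and 2 lowest of each list, up to 5 differences from SCe in each direction with at least 20 reads in every library, and Lgr5, Spp1, Gja1 and Ly6a. Some genes covered by these rules are not reported here. The comparison, lists and rules were chosen with earlier results of these data known, and the lists were compiled from general knowledge. Alternatives tried included DESeq2 1.42.0, other lengths, transcripts, filters and scalings, and leaving out each library. The authors' deposited table of translation efficiency and the libraries from mice were not used here.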

Additional observations from a re-analysis of the deposited data

Results flagged for a closer look

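The difference in ratio between the Rptor-labelled footprints over WT mRNA and SCe organoids passed the edgeR adjusted p for 11 genes, which are listed for that reason. Values are log2, positive where the ratio was higher with the Rptor-labelled footprints. Those with at least 20 reads in every library were Eno1b at 9.01, Lars2 at 1.97, Myo5a at 1.69 and Rsrc2 at 1.43. The other 7 were singled out after their values were seen. Gm21411 differed by 14.78, with 8, 3 and 14 footprints against none in SCe and at most 3 reads in a WT line against 141 to 296 in SCe. Zfp990 differed by 5.92 on mRNA reads of 38 and 45 in WT lines against 2083 to 5940 in SCe. Khdc1a differed by 5.32, with 75, 75 and 100 footprints against 6, 0 and 2. Rims2 differed by 4.76, with 48 and 50 reads in WT lines against 436 to 1092. The 3 lower ones were Tut4 at -10.07, with no footprint here against 24, 37 and 106 in SCe, Pcdh8 at -8.73, with 504 and 392 reads in WT lines against 12 to 18, and Ctrb1 at -7.97, with 445 and 540 reads in WT lines against at most 1. Of the 11 leave-one-out fits, Eno1b and Zfp990 passed in all 11, Rims2 in 9 and each of the others in 3 to 5.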

How the results depend on the processing

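Of 1713 genes higher and 2534 lower, the counts stayed within 1.5 times except as follows. Higher genes numbered 3061 without a count filter, 2601 with effective lengths, 4103 without centring, 1068 with glmTreat and 4266 without a fold minimum. Lower genes numbered 1464 without centring and 4237 without a fold minimum. Leaving out each library or line gave 1606 to 2063 higher and 2236 to 2747 lower. Counts hide turnover: without lengths 1085 of the 1713 higher genes remained, and on the transcript with most mRNA reads 1232. Of the 2534 lower genes, 1976 remained without lengths and 1373 on that transcript. Deviations of same-numbered footprint libraries and WT lines correlated at 0.03 and -0.04 across genes. With 2 WT lines these values cannot show whether a shared organoid number means a shared origin. With the number as a replicate block 1652 genes were higher and 2182 lower. Differences from SCe (8 higher, 3 lower) were 366 and 239 with DESeq2, 618 and 574 with effective lengths, 167 and 179 with technical libraries apart, 6 lower without a filter and 2 and 0 with the replicate block. Leaving out each library gave 2 to 47 higher and 0 to 73 lower, and without the 2 shallowest SCe footprint libraries there were 368 and 554. The latter leaves 1 SCe footprint library, and leaving out a WT line leaves 1 line, each assumed to vary like the other groups. The causes were not tested.

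Medians that changed sign were, for ribosomal proteins, -0.33 with effective lengths for mRNA alone. Other TOP mRNAs were at 0.27 without lengths and 0.21 without centring. The mTOR list was at 0.13 without a filter, 0.36 with effective lengths and 0.44 without centring. Selenoproteins were at -0.0601 with 5′ footprints added and -0.0211 with effective lengths for mRNA alone, and Paneth genes at -0.25 with the latter. Immediate early genes were at -0.11 without lengths. Enterocyte genes were at 0.18 without a filter, 0.32 without lengths, 0.47 without centring, 0.36 on the top transcript and between -0.118 and 0.00614 leaving out a library. Fetal-like genes were at -0.39 on the top transcript. Against Rptor-labelled mRNA the medians were -0.32 for immediate early, -1.89 for fetal-like, -0.66 for goblet and 0.45 for enterocyte genes. Single genes that changed sign were Lgr5 at -0.0778 with effective lengths, Rptor at 0.14 without centring and 1.25 against Rptor-labelled mRNA, and Ly6a at -0.39 on the top transcript and -1.35 against Rptor-labelled mRNA. Rpl22 was at 0.054 without a filter, 0.40 without lengths, 0.34 without centring, 0.0644 on the top transcript and between -0.41 and 0.0934 leaving out a library. Deptor was at -0.59 without lengths, Tsc1 at 0.86 on the top transcript and, against SCe, Myo5a at -2.27 with effective lengths. Effective lengths for mRNA alone, the removal of genes sharing a coding sequence and of shallow SCe libraries were chosen after seeing the data.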
